A study of Mus musculus with 4 samples.

Results

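The solute carrier families SLC1, SLC3, SLC7, SLC36, SLC38 and SLC43, which hold many of the plasma membrane and lysosomal amino acid transporters of mammalian cells, were examined in mouse gastrocnemius, the large calf muscle. Every row of the deposited expression table that named a single gene of these 6 families was taken, whatever its level, unless the authors had marked it as having too many fragments (HIDATA), which applied to none of them. This gave 44 genes of 25833 rows, and the authors had tested 27 of them. The other 17 were left untested at low levels, the highest at 0.274 FPKM (fragments scaled to transcript length and library size). The rule for the families used names only and no measured value, but it was chosen with earlier results of these data known.

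The samples were gastrocnemius of C57BL/6J mice at 8 weeks of age: 2 libraries of wild-type controls (WT) and 2 of mice in which Fundc1 was deleted specifically in muscle (Fundc1-mKO, here mKO), which the labels call biological replicates. The Cre line, the floxed exon and the sex were not stated in the sources used here. FUNDC1 is a mitochondrial outer membrane protein known as a mitophagy receptor. The table holds 1 FPKM per gene and group with the authors' interval around it, so values of single animals are not shown, and neither the spread between animals nor the depth is known. A gene is said to rise or fall only where it passed a q of 0.05 in the authors' deposited table.

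Amino acid transporters work as a network. System A carriers (Slc38a1, Slc38a2, Slc38a4) load small neutral amino acids with sodium, system N carriers (Slc38a3, Slc38a5) exchange glutamine, histidine and asparagine in either direction with sodium and protons, and obligatory exchangers such as the L-type and ASC-type carriers trade one amino acid for another. The SLC7 light chains reach the membrane only when bound to a heavy chain of the SLC3 family. In skeletal muscle, a large store of free glutamine, this traffic feeds protein synthesis, glutamine release to the blood and the signalling of mTORC1, the kinase complex that senses amino acids.

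The upstream sequences of 3 genes are shown: Slc38a2 and Slc38a4, the most abundant members, and Slc7a11, the cystine and glutamate exchanger that is a textbook target of the amino acid response through the transcription factor ATF4. Each line gives the 250 bases before the RefSeq start on the minus strand of GRCm38.p6, at chr15:96699729-96699978, chr15:97055957-97056206 and chr3:50443614-50443863. Capitals mark matches on either strand to the core of the amino acid response element (TGATGNAA), to an E-box (CAGCTG) or to a GC box (GGGCGG).
Slc38a2: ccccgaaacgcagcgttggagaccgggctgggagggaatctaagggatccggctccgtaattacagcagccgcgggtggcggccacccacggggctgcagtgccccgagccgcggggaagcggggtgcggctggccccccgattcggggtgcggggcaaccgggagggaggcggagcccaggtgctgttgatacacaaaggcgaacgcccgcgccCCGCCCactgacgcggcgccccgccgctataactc
Slc38a4: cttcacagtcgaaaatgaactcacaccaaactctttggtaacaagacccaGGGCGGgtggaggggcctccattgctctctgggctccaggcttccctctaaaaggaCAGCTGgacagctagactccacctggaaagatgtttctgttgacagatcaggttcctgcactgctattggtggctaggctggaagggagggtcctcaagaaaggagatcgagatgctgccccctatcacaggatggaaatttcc
Slc7a11: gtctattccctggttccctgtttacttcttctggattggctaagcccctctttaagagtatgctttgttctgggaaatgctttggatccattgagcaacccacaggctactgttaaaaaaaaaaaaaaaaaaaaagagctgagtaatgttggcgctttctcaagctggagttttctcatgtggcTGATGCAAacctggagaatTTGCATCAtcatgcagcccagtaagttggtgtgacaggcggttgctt
Windows of 300 bases around the start were present for 33 of the 44 genes, 44 windows in all, and Slc38a3 was not among them. The amino acid response core was found in 3 genes, Slc1a4, Slc7a7 and Slc7a11, or in 9.09% of their windows, against 3.60% of the 21263 windows of protein-coding genes. In Slc7a11 it occurred as TGATGCAA at 66 bases and as TTGCATCA at 47 bases before the start. The E-box stood in 22.7% of the families' windows against 15.6%, and the GC box in 63.6% against 46.2%. No 2 of these 3 motifs share letters in the sequences printed. Windows of one gene can overlap, and a match is a description of letters and shows no binding.

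Of the 27 tested genes, Slc38a3 rose in mKO muscle and none fell. It encodes SNAT3, the system N glutamine carrier. Its level was 25.0 FPKM (interval 20.8 to 29.3) in WT and 30.4 FPKM (25.4 to 35.5) in mKO. The mKO value lay above the WT interval and the intervals overlapped. The difference was 1.22-fold, a log2 ratio of 0.28 with an SE of 0.17 derived from the authors' intervals, and the authors' deposited table gives it p = 0.000500 and q = 0.0222. The gene lies on the minus strand of chromosome 9, where its locus spans 107651155 to 107668968 in mm10. One call among 27 tested genes is 3.70%, and 3.17% of all 14134 tested rows passed the same q, so the families held calls at about the rate of the whole table. By direction, 0.92% of all tested rows rose and 2.25% fell.

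The call of Slc38a3 depended on how the authors' test statistic was read. An interval of 2 SE each way around its log2 ratio ran from -0.06 to 0.62. Its test statistic of 1.65 in the authors' deposited table, read against a normal distribution, gave an unadjusted p of 0.0996. Read that way no gene of the 6 families passed, and 0.198% of all tested rows did. Intervals of the groups lay apart for none of the 27 genes and for 0.715% of all tested rows. Transcripts of other cell types also differed between the groups: all 14 macrophage markers were lower in mKO, 10 of them past q, with a summed level of 358 FPKM in WT and 274 in mKO, and of 13 fibroblast and matrix markers 12 were lower, 7 of them past q (371 and 318 FPKM). Endothelial and mural markers were higher in 11 of 14, none of them past q (191 and 208 FPKM). Adipocyte markers were higher in 7 of 10, with Retn past q, and lower in 3 (1007 and 1163 FPKM). Fabp4 held 733 and 828 FPKM of that sum, and Adipoq was at 32.1 and 32.3 FPKM. The tested granulocyte and lymphocyte markers were higher in 6 of 7, 5 of them past q (198 and 272 FPKM). All 6 were granulocyte genes, S100a8 at 136 and 184 FPKM among them. The lymphocyte gene Cd3e was lower, at 0.759 and 0.589 FPKM, and did not pass q. With the test statistic read against a normal distribution, 1 macrophage, 1 fibroblast and matrix and 0 granulocyte and lymphocyte markers passed. Among untested markers the B cell gene Ms4a1 was listed at 0 in WT and 0.00927 FPKM in mKO. The neutrophil gene Elane was listed at 0.0750 FPKM in WT (interval 0 to 2.77) and 0 in mKO. Both genes were too low to tell the groups apart. The part of these cell types in the Slc38a3 result was not tested, and in a tissue sample fewer cells of a type and less RNA per cell cannot be told apart.

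**Figure D1:**
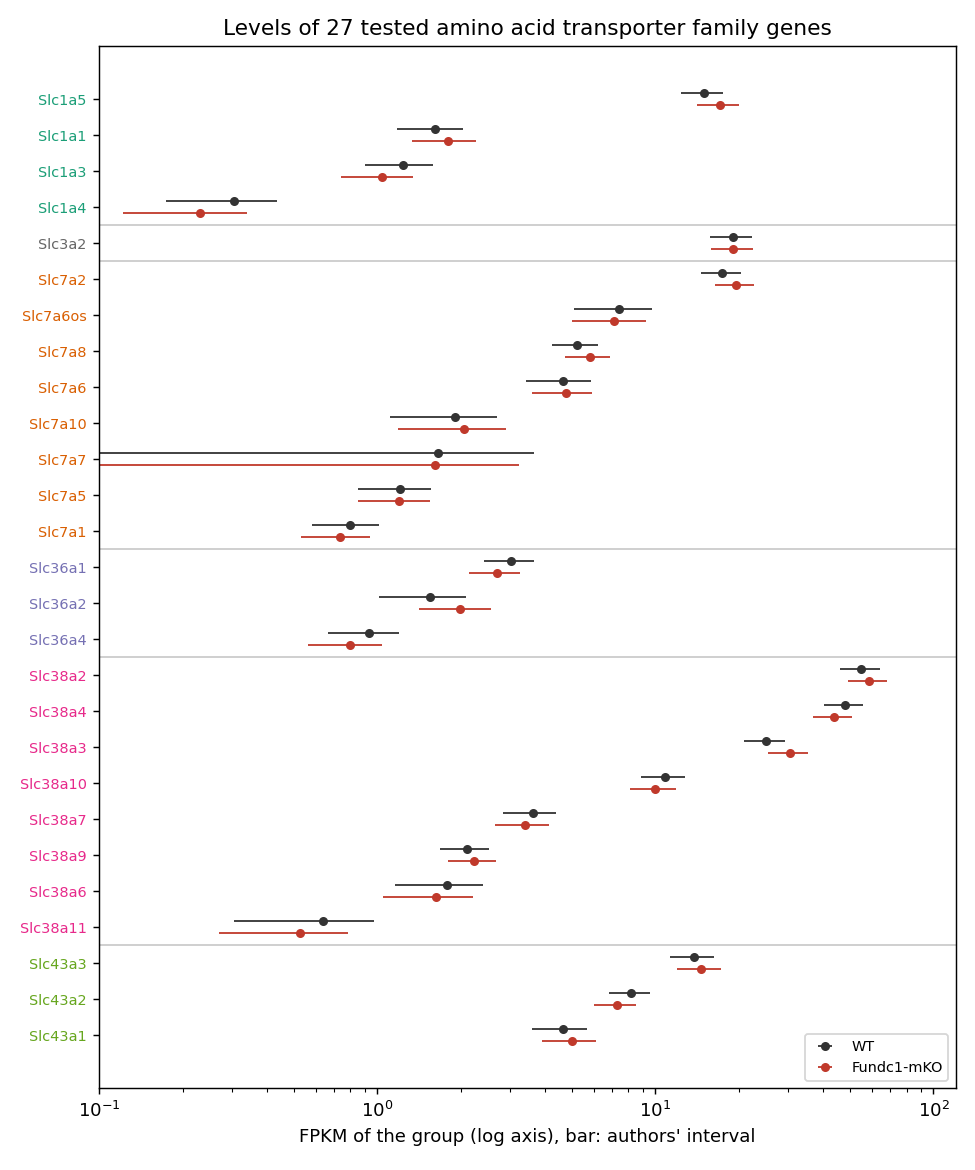
FPKM of each tested gene in WT (black) and mKO (red) on a log axis, grouped by family, with the authors' interval as a bar; bars that reach 0 are drawn to the left edge. The SLC38 genes Slc38a2 and Slc38a4 stand highest, between 43.9 and 58.7 FPKM, and in every gene the bars of the groups overlap.

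The SLC38 family dominated these transporters in gastrocnemius, with 57.4% of the summed FPKM of the 27 genes in WT and 56.9% in mKO. Slc38a2, the system A carrier SNAT2 and a known target of amino acid starvation, was the most abundant member at 55.1 FPKM in WT (interval 45.9 to 64.3) and 58.7 FPKM in mKO (49.2 to 68.1). Its log2 ratio was 0.09 with an SE of 0.17 and an interval of -0.24 to 0.43 (p = 0.274, q = 0.764 in the authors' deposited table). Slc38a4, the system A carrier SNAT4 that is imprinted in mice, was at 48.2 FPKM in WT (40.5 to 55.9) and 43.9 FPKM in mKO (36.9 to 51.0). Its log2 ratio was -0.13 with an SE of 0.16 (q = 0.519 in the authors' deposited table). The third system A gene, Slc38a1, which encodes SNAT1, was listed at 0.260 and 0.274 FPKM and was not tested. Slc38a1, Slc38a2 and Slc38a4 lie near one another on chromosome 15, between 96571418 and 97055956, and differed widely in level.

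The 3 system A genes summed to 104 FPKM in WT and 103 in mKO, while system N rested on Slc38a3, since Slc38a5, which encodes SNAT5, was listed at 0 in both groups. Slc38a2 was 2.2 times as abundant as Slc38a3 in WT and 1.93 times in mKO. The difference between these ratios was not tested.

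The remaining SLC38 genes were lower in both groups. Slc38a10, a carrier with a long intracellular tail, was at 10.8 FPKM in WT against 9.997 in mKO. Slc38a7, the lysosomal glutamine exporter SNAT7, was at 3.62 and 3.39 FPKM, and Slc38a9, the lysosomal arginine sensor that signals to mTORC1, at 2.11 and 2.23 FPKM. Slc38a6 was at 1.79 and 1.62 FPKM, on a locus that the authors' table shares with Trmt5, and Slc38a11 at 0.640 and 0.528 FPKM. Slc38a8 was listed at 0 in both groups. Of the 8 tested SLC38 genes 3 were at higher and 5 at lower FPKM in mKO, and the log2 intervals of all of them included 0.

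**Figure D2:**
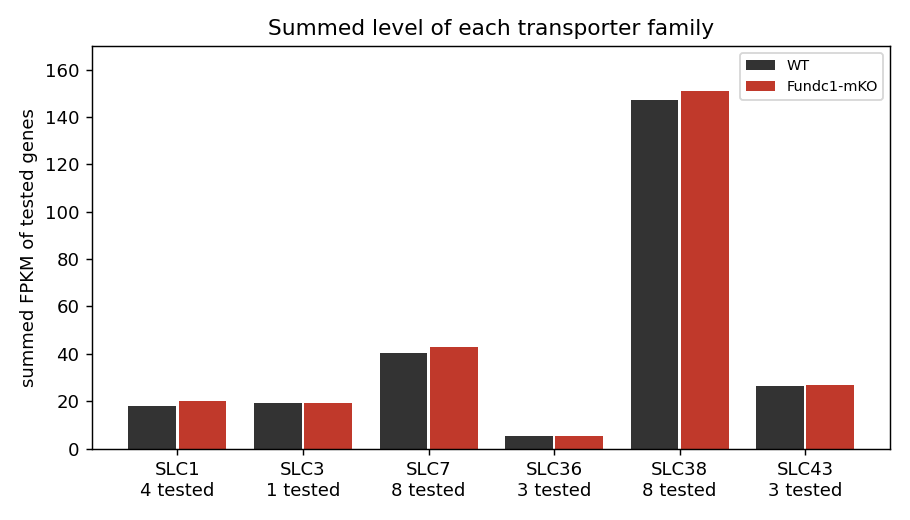
Summed FPKM of the tested genes of each family in WT (black) and mKO (red), from a linear axis that starts at 0; the sums carry no error because the authors' intervals belong to single genes. SLC38 stands at 147 FPKM in WT and 151 in mKO, ahead of SLC7 at 40.2 and 42.7.

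Cationic amino acid carriers were represented by Slc7a2, and its level was 17.4 FPKM in WT (interval 14.6 to 20.2) and 19.5 FPKM in mKO (16.4 to 22.6). Slc7a2 encodes CAT2, a carrier of arginine and lysine. Its log2 ratio of 0.16 had an SE of 0.16, with p = 0.0490 (q = 0.361) in the authors' deposited table, so it did not pass. Slc7a1, the widely expressed cationic carrier CAT1, was at 0.797 and 0.735 FPKM, and Slc7a3 was untested at 0.0520 and 0.0260 FPKM. The 3 cationic genes summed to 18.3 FPKM in WT and 20.3 in mKO, nearly all of it from Slc7a2.

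The heavy chain gene Slc3a2, which encodes CD98, the partner of the light chains, had almost equal values in both groups. It was at 19.0 FPKM in WT (interval 15.7 to 22.3) and 19.1 in mKO (15.8 to 22.4), a log2 ratio of 0.0023 with an SE of 0.18 and an interval of -0.35 to 0.35 (q = 0.998 in the authors' deposited table). Slc3a1, which encodes the other heavy chain rBAT of kidney and gut, was untested at 0.0660 and 0.0342 FPKM. The 6 light chains that pair with CD98 summed to 14.6 FPKM in WT and 15.4 in mKO, so the heavy chain stood at 1.30 and 1.24 times that sum.

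Among the light chains, Slc7a8 had the highest FPKM, with intervals that overlapped those of Slc7a6 in both groups, and Slc7a5 was low. Slc7a8, which encodes LAT2, was at 5.23 FPKM in WT (interval 4.23 to 6.22) and 5.80 in mKO (4.71 to 6.88), with a log2 ratio of 0.15, an SE of 0.19 and q = 0.545 in the authors' deposited table. Slc7a5 encodes LAT1, the leucine carrier of proliferating cells, and was at 1.206 FPKM in WT (0.852 to 1.56) and 1.1998 in mKO (0.849 to 1.55), with q = 0.997 in the authors' deposited table. Its span overlaps Gm20388 on the other strand. Slc7a8 was 4.33 times as abundant as Slc7a5 in WT and 4.83 times in mKO, with intervals apart in both groups. Slc7a6, which encodes the exchanger y+LAT2, was at 4.64 FPKM in WT (3.43 to 5.86) and 4.75 in mKO (3.60 to 5.90). The log2 ratio of Slc7a6 was 0.03 with an SE of 0.26 (q = 0.977 in the authors' deposited table). It lies on a locus shared with Slc7a6os.

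The other light chains lay near or below 2 FPKM. Slc7a7, which encodes y+LAT1, known from lysinuric protein intolerance and present in macrophages, was at 1.65 and 1.61 FPKM, but both intervals reached down to 0. Its SE of 1.14 on the log2 scale was the largest of the 27, and its locus in the authors' table also holds Oxa1l, at 23.4 and 22.4 FPKM, which overlaps it by 232 bases on the other strand. Slc7a10, the asc-1 carrier of neurons and adipocytes, was at 1.90 and 2.05 FPKM, on a locus shared with Lrp3. Slc7a11, whose upstream sequence carries both amino acid response cores printed above, was untested at 0.0292 FPKM (WT) and 0.00404 (mKO), too low for a fold. The remaining SLC7 genes, not all of them light chains, were Slc7a4, Slc7a9, Slc7a12, Slc7a13, Slc7a14 and Slc7a15. They were untested and none exceeded 0.0886 FPKM, with Slc7a9 and Slc7a12 listed at 0 in both groups.

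The SLC1 family splits into sodium-coupled glutamate carriers and the ASC exchangers of neutral amino acids, and most of its level lay with Slc1a5. Slc1a5 encodes ASCT2, the glutamine exchanger, and was at 14.9 FPKM in WT (interval 12.3 to 17.6) and 17.1 in mKO (14.1 to 20.0). Its log2 ratio of 0.19 had an SE of 0.18, with p = 0.0300 and q = 0.277 in the authors' deposited table, so it did not pass. Slc1a4, the related exchanger ASCT1, was the lowest of the tested genes at 0.305 FPKM in WT (0.174 to 0.437) and 0.231 in mKO (0.121 to 0.341), with q = 0.476 in the authors' deposited table.

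Glutamate carriers were low. Slc1a1, which encodes the neuronal and epithelial carrier EAAC1, was at 1.61 FPKM in WT (1.17 to 2.04) and 1.80 in mKO (1.33 to 2.26), with a log2 ratio of 0.16, an SE of 0.27 and q = 0.711 in the authors' deposited table. Its span overlaps 4430402I18Rik on the other strand, and since the use of strand in counting is not stated, reads of such pairs cannot be told apart. Slc1a3, the glial carrier GLAST, was at 1.24 FPKM in WT (0.900 to 1.58) and 1.04 in mKO (0.740 to 1.34), with a log2 ratio of -0.25, an SE of 0.29 and q = 0.454 in the authors' deposited table. Slc1a2, Slc1a6 and Slc1a7, whose best known sites are brain and retina, were untested and none exceeded 0.0564 FPKM.

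The proton-coupled SLC36 carriers were the least abundant family, at 5.51 FPKM summed in WT and 5.49 in mKO. Slc36a1, the lysosomal carrier PAT1, was at 3.03 FPKM in WT (interval 2.41 to 3.65) and 2.70 in mKO (2.14 to 3.27), with a log2 ratio of -0.17, an SE of 0.21 and q = 0.542 in the authors' deposited table. Slc36a2 encodes PAT2, a carrier of glycine and proline also used as a surface marker of brown fat cells. It was at 1.55 FPKM in WT (1.02 to 2.08) and 1.99 in mKO (1.41 to 2.57), a log2 ratio of 0.36 with an SE of 0.33, p = 0.0260 and q = 0.259 in the authors' deposited table. This was the largest ratio upward in the 27 genes and did not pass q. Slc36a4, which encodes the high-affinity proline and tryptophan carrier PAT4, was at 0.934 FPKM (0.667 to 1.2) and 0.7998 (0.562 to 1.04), with q = 0.562 in the authors' deposited table. Slc36a3 was untested, listed at 0 in WT and at 0.0111 FPKM in mKO.

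The 3 SLC43 genes were all tested and none passed q. Slc43a1 and Slc43a2 encode LAT3 and LAT4, which let large neutral amino acids such as leucine pass without exchange. Slc43a2 was at 8.20 FPKM in WT (interval 6.81 to 9.59) and 7.25 in mKO (6.01 to 8.5), a log2 ratio of -0.18 with an SE of 0.17, p = 0.0418 and q = 0.334 in the authors' deposited table. Slc43a1 was at 4.64 FPKM (3.60 to 5.67) and 5.0 (3.90 to 6.10), with a log2 ratio of 0.11, an SE of 0.23 and q = 0.814 in the authors' deposited table. Slc43a3, at 13.8 FPKM in WT (11.3 to 16.3) and 14.6 in mKO (12.0 to 17.2), had a log2 ratio of 0.08, an SE of 0.18 and q = 0.842 in the authors' deposited table. It encodes a purine nucleobase carrier and so shares the family name without being known as an amino acid transporter.

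The rule also took in 2 genes that are no transporters. Slc7a6os, a protein-coding neighbour of Slc7a6 on the other strand that is related to a yeast factor for nuclear import of RNA polymerase, was at 7.40 FPKM in WT (5.10 to 9.70) and 7.11 in mKO (5.01 to 9.21), a log2 ratio of -0.06 with an SE of 0.31 with q = 0.970 in the authors' deposited table. The antisense gene Slc36a1os was untested at 0.00997 and 0.0599 FPKM. Without these 2 the tested set is 26 genes, 13 higher and 13 lower in mKO, with the same single call.

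**Figure D3:**
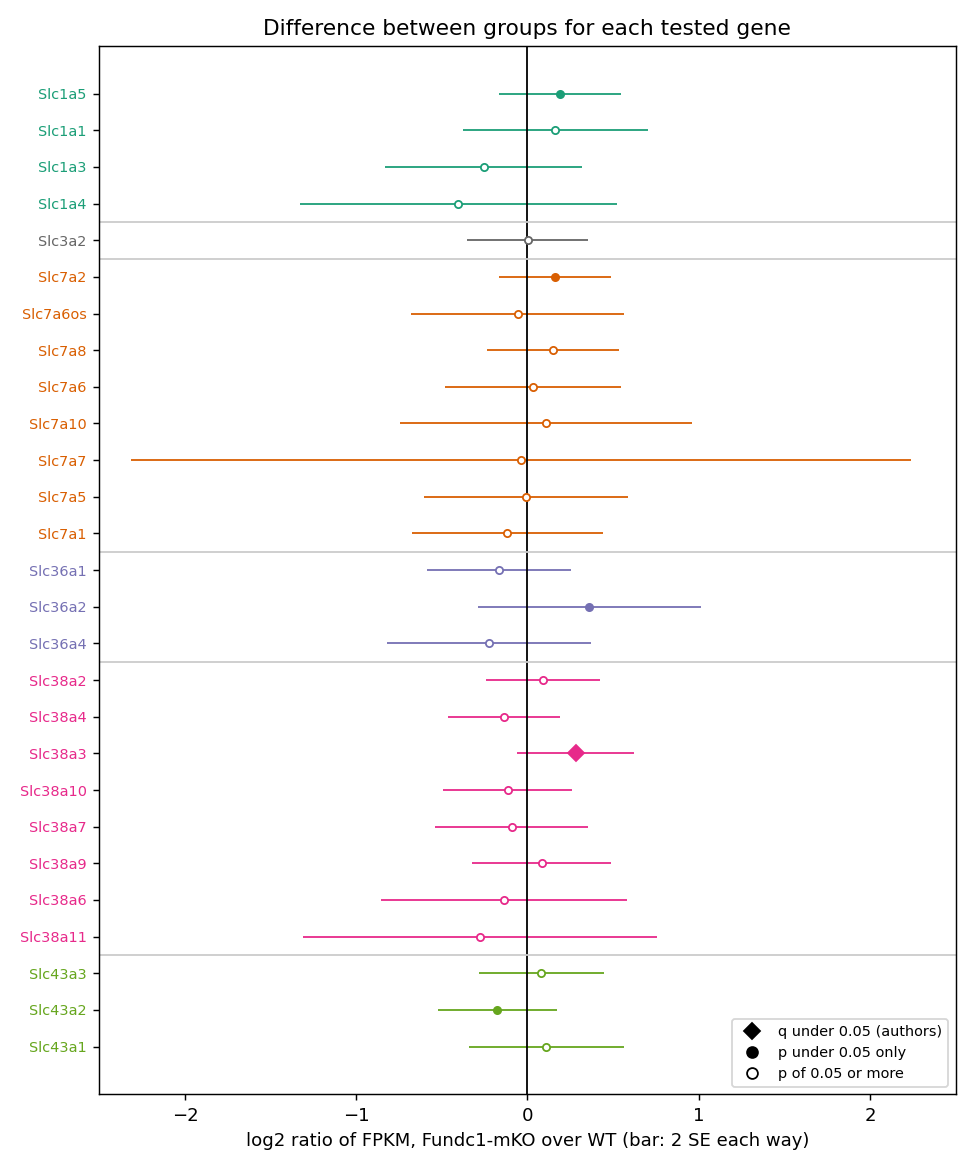
Log2 ratio of FPKM, mKO over WT, for each tested gene, with a bar of 2 SE each way derived from the authors' intervals; the diamond marks q under 0.05, filled circles p under 0.05 only, both from the authors' deposited table. Every bar crosses 0, that of Slc38a3 included, and the widest belongs to Slc7a7.

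Across the 27 genes the ratios were small. The log2 ratio ran from -0.40 in Slc1a4 to 0.36 in Slc36a2, with 13 genes higher and 14 lower in mKO, where 43.4% of all tested rows were higher. With a pseudocount of 1 the median was -0.0040, beside -0.018 over the 12556 tested rows that named a single gene. The interval of 2 SE lay within a log2 ratio of 1 either way for 23 genes; the exceptions were Slc7a7, Slc1a4, Slc38a11 and Slc36a2. In all 27 genes the interval included 0. Neither count was made over all tested rows, so they do not set these genes apart from the rest.

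A p below 0.05 before adjustment was found in the authors' deposited table for 5 of the 27 genes, 18.5%, against 13.7% of all tested rows. These were Slc38a3, Slc1a5, Slc7a2 and Slc36a2 at higher FPKM in mKO and Slc43a2 at lower FPKM. All tested rows had 4.68% with such a p and a higher value, and 8.97% with a lower one. At a mean of at least 1 FPKM, 13 of 23 members were at higher FPKM in mKO, beside 43.5% of all single-gene rows. At a mean of at least 5 FPKM it was 7 of 11, beside 45.5%. At a mean of at least 10 FPKM it was 6 of 8, beside 46.6%, with medians of 0.08 and -0.0072. These 6 include Slc3a2, at a log2 ratio of 0.0023, and Slc43a3, not known as an amino acid transporter. The differences between these shares were not tested. The members above 10 FPKM at lower values were Slc38a4 and Slc38a10.

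**Figure D4:**
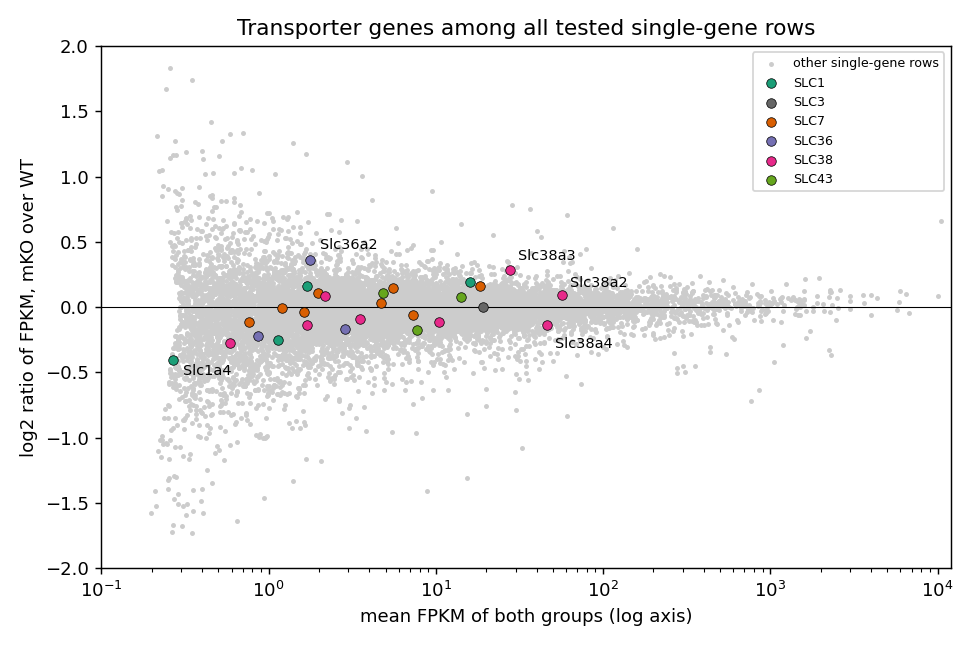
Mean FPKM of both groups (log axis) against the log2 ratio of mKO over WT for tested single-gene rows above 0 in both groups (grey) and for the transporter genes (colours by family); 19 rows lie outside the axes. The transporter genes lie between -0.40 and 0.36, inside the grey cloud at each level.

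Levels ranged 180-fold from Slc38a2 to Slc1a4 in WT. Slc38a2 stood at percentile 90.0 of the mean FPKM of all tested single-gene rows, Slc38a3 at 81.9, Slc3a2 at 76.0, Slc7a2 at 75.4 and Slc1a5 at 72.8. Slc7a5 stood at 19.2. The 5 most abundant genes, Slc38a2, Slc38a4, Slc38a3, Slc3a2 and Slc7a2, held 64.2% of the summed FPKM in WT and 64.7% in mKO. Of the 26 neighbouring pairs in the order of mean level, 23 had overlapping intervals in both groups. The step from Slc38a4 to Slc38a3 was apart in both groups, and the steps from Slc38a3 to Slc3a2 and from Slc43a3 to Slc38a10 were apart in mKO, where both overlapped in WT. Between the groups 10 genes changed rank, by at most 3 places.

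The targeted gene and the tissue were checked on the same table. Fundc1 fell from 20.1 FPKM in WT to 4.23 in mKO (q = 0.00338 in the authors' deposited table). Of 15 listed myofibre markers 7 carried the HIDATA mark, and the other 8 included Myl1 at 6831 and 6604 FPKM and Pvalb at 5705 and 6219; Myh2, the type IIa myosin, fell from 487 to 384. Epidermal markers, which do not belong to muscle, summed to 10.97 FPKM in WT and 3.85 in mKO, and all 8 tested were lower, 4 of them past q (Krt10, Dmkn, Lor and Perp). Schwann cell markers summed to 97.7 and 90.1 FPKM with no calls, and the 2 tested red blood cell markers to 78.9 and 90.7 FPKM.

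Transporters of amino acids and related solutes outside the 6 families gave 1 call in 10 tested genes, 10%, beside 3.17% of all tested rows. Slc15a2, the peptide and histidine carrier PEPT2, fell from 2.30 FPKM in WT to 1.03 in mKO, a 2.24-fold difference with q = 0.00338 in the authors' deposited table and intervals apart; macrophage and epidermal markers were lower as well, and their part in this result was not tested. With the test statistic read against a normal distribution the gene did not pass (adjusted p = 0.470). The median log2 ratio of the list was -0.034. Slc6a8, the creatine carrier, led at 39.0 FPKM in WT against 43.5 in mKO (q = 0.368 in the authors' deposited table), followed by the taurine carrier Slc6a6 at 26.7 and 27.4 FPKM. Slc16a10, an aromatic amino acid carrier, was at 19.6 and 17.3 FPKM.

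Among genes that sense or respond to amino acids, 3 genes fell and none rose. Of these 3, intervals lay apart for Ddit4 alone. It alone passed with the test statistic read against a normal distribution (adjusted p = 1.03e-05). Of 43 tested genes of amino acid sensing and mTORC1, 2 fell, 4.65% beside 3.17% of all tested rows, with a median log2 ratio of -0.028. Ddit4, an inhibitor of mTORC1, fell from 44.4 to 21.0 FPKM, and Eif4ebp1, the translation repressor that mTORC1 phosphorylates, from 111 to 89.8 FPKM (q = 0.0236 in the authors' deposited table). The GTPase Sar1b, the most abundant of the list, was at 632 and 644 FPKM. Of 29 tested genes of the amino acid response and the ATF4 pathway, 2 fell, 6.90%. They were Chac1, a glutathione-degrading enzyme, from 46.5 to 36.7 FPKM and again Eif4ebp1, which stands in both lists. This list holds Atf4 itself and the eIF2 kinase genes Eif2ak1 to Eif2ak4, so it is not one of ATF4 targets alone. Before adjustment 8 of the 29 were below a p of 0.05 in the authors' deposited table, 27.6% beside 13.7% of all tested rows. In mKO 7 of them were at lower FPKM and 1 at higher, where all tested rows had 8.97% lower and 4.68% higher with such a p. The list's median was -0.048, Atf4 itself was at 89.5 and 96.3 FPKM (q = 0.674 in the authors' deposited table), and Asns, the asparagine synthetase, at 1.14 and 1.27 FPKM.

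None of 13 tested enzymes of glutamine, glutamate, alanine and aspartate passed q. Before adjustment 1 was below a p of 0.05 in the authors' deposited table, Aldh18a1 at 1.04 and 0.820 FPKM. Their median log2 ratio was 0.032. Glul, the glutamine synthetase, led at 283 FPKM in WT against 296 in mKO (q = 0.935 in the authors' deposited table), where its interval ran from 0 to 2626. The values in mKO were 1.22 times those in WT for Slc38a3, 1.14 times for Slc1a5 and 1.06 times for Slc38a2. They were 0.938 times for Slc38a7 and 0.912 times for Slc38a4. Of these genes Slc38a3 passed q, and the log2 interval of each included 0. The genes are a selection and do not cover all carriers of glutamine.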

How the data were processed

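RNA of gastrocnemius from 2 WT and 2 mKO libraries was sequenced. Per the submitters' processing notes, bcl2fastq, FastQC 0.11.3, TopHat2 2.0.14, Cufflinks 2.2.1 and the build mm10 were used, with no role stated; the sources used here do not give the annotation, the strand setting, the group scaling or the depth. Per the file headers, the authors deposited 1 FPKM per gene and group with interval bounds. They also deposited a test score in the column for the test statistic, and the p-value and q-value of their test over the rows marked OK.

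Values per library were not analysed here, so the planned limma fit could not be made and the authors' q was counted. Log2 ratios, folds and medians were computed from the deposited FPKM. SEs took the distance to the upper bound as 2 SD; the ratio over this SE came within 1% of the authors' statistic in 99.9% of 14100 rows. Loci were shifted by 1 to count from 1. The 13 gene lists, the members and the rule for named genes (every member, with full values for those at p under 0.05 and the 3 most abundant of a family) were chosen with earlier results of these data known. Alternatives were other thresholds, pseudocounts, scalings and minimum levels. The adjustment of the normal reading was tested on simulated data with normal noise, which cannot show whether that reading suits the authors' statistic. Promoter windows are RefSeq's (GRCm38.p6). Python 3.11.15, pandas 2.3.3 and scipy 1.17.1 were used.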

Additional observations from a re-analysis of the deposited data

How the results depend on the processing

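No paired analysis was possible because the table holds 1 value per group, and leaving out a replicate could not be run for the same reason. The single call among the 27 tested genes, Slc38a3, remained at q under 0.10 and at a mean FPKM of at least 1 or 5. The count was 0 at q under 0.01, 0 by intervals that lie apart and 0 when the authors' test statistic was read against a normal distribution, where 0 genes also had an unadjusted p under 0.05, beside 5 with such a p in the authors' deposited table. By that reading the calls of the other lists were 0 for transporters outside the 6 families, 1 for amino acid sensing and mTORC1 and 0 for the amino acid response, in place of 1, 2 and 2. The median log2 ratio of the 27 genes with a pseudocount of 1, -0.0040 as reported, was 0.013 with the groups at equal medians. It was 0.028 at a mean FPKM of at least 1 and 0.076 at 5 or more. The scaling to equal medians shifts log2 ratios without the pseudocount by 0.032, and those with it by less. Equal medians turned the direction of 1 of the 27 genes, Slc7a5. The cause of these differences was not tested. The depth of the libraries is unknown, so a value listed at 0 has no upper limit; for the other values of the 17 untested genes the authors' intervals reach at most 0.375 FPKM.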
